A study of Homo sapiens with 36 samples.

Results

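The genes of the unfolded protein response and the integrated stress response were examined in RNA-seq data from human neural stem cells (hNSC), a purchased population of dividing neural progenitors grown in culture. The members are 40 listed ER stress and ATF4 pathway genes, chosen by symbol. All 40 were found in the count table, and all 40 were among the 19689 genes tested. Cells were transduced with lentivirus and harvested 48 h later, giving 6 libraries for each of 6 conditions. For MEIS1-OE and MEIS2-OE, a Cas9 that cannot cut, fused to VP64, was guided to the promoter of MEIS1 or MEIS2 together with the MPH activator, which carries domains of p65 and HSF1, so that the cell's own gene was transcribed more strongly (CRISPR-activation). For MEIS1-KO and MEIS2-KO, viruses with an active Cas9 and either guide of a pair were mixed to cut MEIS1 or MEIS2. Non-targeting guide RNA was used with the activation system in ctrl-OE and with the cutting system in ctrl-KO. MEIS1 and MEIS2 are paralogous homeobox transcription factors of neural development.

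All groups share 1 cell product, lentiviral delivery and the same harvest time, and none was left without virus. The activation groups received several separate viruses and the knockout groups a single kind of vector, so the vector system, the number of viruses and their dose cannot be told apart in a comparison of ctrl-OE with ctrl-KO. A knockout at this time is a mixed population in which uncut cells and cells with a cut but transcribed gene remain. The labels number the 6 libraries of a condition but do not say whether they came from separate cultures on separate days, so p-values measure the spread between these libraries. Values are RNA of whole cultures, in which fewer cells of a kind and less RNA per cell cannot be told apart.

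The unfolded protein response begins with 3 sensors in the membrane of the endoplasmic reticulum (ER). PERK phosphorylates the initiation factor eIF2, which slows protein synthesis while translation of ATF4 rises. IRE1 splices XBP1 mRNA, and ATF6 is cut and moves to the nucleus. Other kinases phosphorylate eIF2 when amino acids or heme are short or double-stranded RNA is present, and this shared arm is the integrated stress response. Dividing progenitors use the same genes at rest, for secreted protein folding and for the synthesis of serine, asparagine and one-carbon units. Splicing of XBP1, cleavage of ATF6 and translation of ATF4 are not visible in counts per gene, so the values below are amounts of mRNA.

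Libraries held 15429985 to 22940493 gene counts (median 20324720). Levels are CPM, the share of a library's counts scaled to a common total after TMM adjustment of library sizes. Tests are edgeR quasi-likelihood F tests in one fit of all 36 libraries, and a gene passed where its adjusted p was under 0.05, with adjustment across the whole table. The neural stem cell markers SOX2, NES, PAX6, VIM, SOX1, HES1, FABP7 and MSI1 were all above 1 CPM in every condition. RBFOX3 (neurons) and NANOG (pluripotent cells) were below 0.1 CPM in every condition. The lists they come from were not silent, since 4 of 7 neuronal genes and 1 of 3 pluripotency genes were at or above 1 CPM in every condition. MEIS1 was 17.8 ± 1.1 CPM in ctrl-OE and 310 ± 14.3 CPM in MEIS1-OE (SD, n = 6), and 25.7 ± 1.66 CPM in ctrl-KO against 8.96 ± 1.74 CPM in MEIS1-KO. MEIS2 was 22.6 ± 1.23 CPM in ctrl-OE and 824 ± 20 CPM in MEIS2-OE, and 25.8 ± 1.58 CPM in ctrl-KO against 12.1 ± 0.936 CPM in MEIS2-KO. Each target thus changed in the labelled direction, and the knockouts kept a part of the mRNA.

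The 40 genes spanned a wide range of levels. Mean CPM over all libraries ran from 1.71 for CHAC1, a glutathione-degrading enzyme, to 1300 for HSP90B1, the ER form of HSP90. Apart from this range, and from mean CPM used below to pick genes of similar or higher level, different genes were ranked per length. The unit was CPM per kb of all annotated exons, which understates genes with long rarely used exons. That exon length was 13092 bases for HSP90B1 and 2802 for CALR. On this scale CALR (calreticulin, a lectin chaperone) stood highest in ctrl-KO at 321 CPM per kb, followed by ATF4 at 150, the disulfide isomerase PDIA6 at 145, HSP90B1 at 112 and HSPA5 (BiP, the main ER chaperone) at 110 CPM per kb. At the low end were ALDH1L2 at 0.311, CHAC1 at 0.622, STC2 at 0.769 and CEBPB at 0.793 CPM per kb. ATF4 mRNA was thus among the most abundant of the 40 in these transduced control cells, while its well known target DDIT3 (CHOP, a factor linked to cell death) stood at 4.03 CPM per kb in ctrl-KO.

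Promoter windows were read from RefSeq (GRCh38.p14), from 250 bases before to 50 after each listed start. They matched 35 of the 40 members with 52 windows, and no window was matched for ALDH1L2, PDIA3, PSPH, SHMT2 and SLC7A11. Both strands were searched for elements known from this pathway. The ER stress response element (ERSE) holds CCAAT and CCACG with 9 bases between them and is bound by NF-Y with ATF6 or XBP1. It lay in windows of 7 of 35 members (20%) and of 25 of all 27305 genes with a window (0.0916%). The 7 genes with ERSE were the chaperones HSPA5 and HSP90B1, the cofactor CRELD2, the isomerase PDIA6, the lectin chaperones CALR and CANX, and XBP1. Their elements, with 10 bases on either side, are shown because 6 of these 7 genes passed lower in ctrl-OE than in ctrl-KO. The genes were grouped after these values had been seen, and the call of HSPA5 was lost in 8 of 13 alternative fits. Of all tested genes 23.9% passed lower, and 32.1% of those at or above the lowest mean level of a member. Capitals mark the CCAAT and CCACG parts, or their complements ATTGG and CGTGG where the element is on the other strand.
HSPA5, chr9:125241381-125241419, minus strand: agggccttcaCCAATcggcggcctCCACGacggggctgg
HSP90B1, chr12:103930206-103930244, plus strand: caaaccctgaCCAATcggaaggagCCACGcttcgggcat
HSP90B1, chr12:103930311-103930349, plus strand: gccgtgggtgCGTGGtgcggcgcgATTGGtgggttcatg
CRELD2, chr22:49918544-49918582, plus strand: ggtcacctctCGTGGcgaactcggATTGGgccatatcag
PDIA6, chr2:10812843-10812881, minus strand: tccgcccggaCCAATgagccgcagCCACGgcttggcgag
CALR, chr19:12938374-12938412, plus strand: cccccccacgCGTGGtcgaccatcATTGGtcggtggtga
CANX, chr5:179698768-179698806, plus strand: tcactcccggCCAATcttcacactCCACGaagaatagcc
XBP1, chr22:28800593-28800631, minus strand: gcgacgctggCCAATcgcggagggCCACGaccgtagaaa

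The compact form ERSE-II (ATTGG and CCACG with 1 base between them) lay in windows of 3 of 35 members (8.57%) and of 0.0696% of all genes, and the letters TGACGTGG (UPRE), a site of XBP1 and ATF6, in those of HYOU1 and of 0.927% of all genes. The composite site TGATGNAA of C/EBP and ATF factors (CARE), through which ATF4 is known to act, lay in windows of ASNS, ATF3, CHAC1, HERPUD1 and SLC3A2, which is 14.3% of members against 4.46% of all genes. The MEIS core TGACAG lay in windows of 8 of 35 members (22.9%) and of 18.6% of all genes. These matches describe letters and are not evidence of binding. The elements of HERPUD1, HYOU1 and SDF2L1 are ERSE-II, with capitals as above, and the UPRE match of HYOU1 overlaps its second element.
HERPUD1, chr16:56932015-56932045, plus strand: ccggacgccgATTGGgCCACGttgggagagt
HYOU1, chr11:119057264-119057294, minus strand: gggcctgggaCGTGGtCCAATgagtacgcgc
HYOU1, chr11:119057370-119057400, minus strand: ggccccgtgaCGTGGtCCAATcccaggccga
SDF2L1, chr22:21642104-21642134, plus strand: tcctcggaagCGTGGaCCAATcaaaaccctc

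The windows of HERPUD1 (chr16:56931892-56932191) and ATF3 (chr1:212565157-212565456, 1 of 2 listed starts) are given whole, because HERPUD1 had the smallest p of the members in MEIS1-OE and ATF3 in both knockouts. Capitals mark every match. In HERPUD1 they are CARE on the other strand, from 176 bases before the start, and ERSE-II from 117 bases before it. In ATF3 they are CARE from 191 bases before the start and the MEIS core on the other strand from 181 bases before it.
HERPUD1: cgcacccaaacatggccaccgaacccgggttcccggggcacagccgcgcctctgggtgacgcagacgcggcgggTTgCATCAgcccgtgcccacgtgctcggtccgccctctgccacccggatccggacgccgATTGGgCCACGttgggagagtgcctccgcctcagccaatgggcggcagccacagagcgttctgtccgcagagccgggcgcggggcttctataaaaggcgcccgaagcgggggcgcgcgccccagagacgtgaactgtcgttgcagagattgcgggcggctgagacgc
ATF3: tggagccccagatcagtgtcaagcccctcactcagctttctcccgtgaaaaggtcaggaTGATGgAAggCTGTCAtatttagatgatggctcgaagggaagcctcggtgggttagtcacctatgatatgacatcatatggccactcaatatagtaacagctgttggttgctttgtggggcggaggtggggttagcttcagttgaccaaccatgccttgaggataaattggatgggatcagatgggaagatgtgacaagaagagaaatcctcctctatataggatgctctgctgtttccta

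A small set of stress genes was higher in the knockouts. In MEIS2-KO, ATF3, SESN2, PPP1R15A and SLC3A2 were higher and PHGDH was lower than in ctrl-KO, and in MEIS1-KO ATF3 and SESN2 were higher. The chaperones, the disulfide isomerases and the ER-associated degradation genes held no gene that passed in either knockout. In MEIS2-KO, 4 of 40 members passed higher (10%) and 1 lower (2.5%), where 4.04% and 5.98% of all tested genes did. For MEIS1-KO, 2 of 40 passed higher (5%) and 0 lower, with 1.03% and 0.432% of all tested genes. Here and below, shares of all tested genes include genes of lower level than any member. Of the 19689 tested, 12700 lay at or above the lowest mean level of a member. The median log2 fold change of the members was 0.03 in MEIS2-KO and 0.05 in MEIS1-KO, against -0.01 and 0.00 over all tested genes. The ctrl-KO libraries are shared by these comparisons.

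ATF3, a stress-induced repressor of the ATF/CREB family (chromosome 1 of GRCh37 from 212738676 to 212794119), changed most. Its level was 32.0 to 43.1 CPM in ctrl-KO, with a median of 36.4. It reached 48.3 to 64.8 CPM in MEIS1-KO (median 55.3) and 49.4 to 70.8 CPM in MEIS2-KO (median 58.2). Every library of both knockouts lay above all 6 control libraries. The log2 fold change was 0.59 (SE 0.10, adjusted p = 0.000872 from edgeR) in MEIS1-KO and 0.67 (SE 0.10, adjusted p = 2.65e-05) in MEIS2-KO. ATF3 was the only member that also exceeded an absolute log2 fold change of 0.58 in the knockouts, a call made for 0.234% of tested genes higher and 0.0559% lower in MEIS1-KO, and for 1.21% higher and 0.371% lower in MEIS2-KO. It passed under all 13 alternatives in both knockouts.

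SESN2 (sestrin 2, which restrains mTORC1 when leucine is short) was 65.7 to 90.0 CPM in ctrl-KO, with a median of 75.9. It was 83.5 to 115 CPM in MEIS1-KO (median 92.5) and 97.3 to 116 CPM in MEIS2-KO (median 108). The MEIS2-KO libraries lay above all controls, while those of MEIS1-KO overlapped them. The log2 fold change was 0.46 (SE 0.08, adjusted p = 0.000147 from edgeR) in MEIS2-KO, where it passed under every alternative, and 0.30 (SE 0.08, adjusted p = 0.0385) in MEIS1-KO. The MEIS1-KO call was lost without any one of the 6 replicate numbers and with only the groups compared (adjusted p between 0.0122 and 0.229 over the alternatives). Whether the 2 knockouts differed was not tested.

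PPP1R15A (GADD34, the phosphatase subunit that restores eIF2 activity) was 35.4 to 47.3 CPM in ctrl-KO, with a median of 43.0, and 50.8 to 66.0 CPM in MEIS2-KO, with a median of 52.0. The groups did not overlap, and the log2 fold change was 0.36 (SE 0.10, adjusted p = 0.0177 from edgeR). The MEIS1-KO libraries held 42.3 to 64.1 CPM, with a log2 fold change of 0.26 (adjusted p = 0.244). SLC3A2 (the heavy chain that carries the amino acid exchangers SLC7A5 and SLC7A11 to the membrane) was 102 to 114 CPM in ctrl-KO (median 112) and 122 to 134 CPM in MEIS2-KO (median 125). Here too no MEIS2-KO library reached down to the controls, with a log2 fold change of 0.19 (SE 0.06, adjusted p = 0.0362). Its partner SLC7A5 had a log2 fold change of 0.41 in MEIS2-KO and 0.35 in MEIS1-KO, with overlapping libraries and adjusted p of 0.0639 and 0.299.

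PHGDH (the first enzyme of serine synthesis) was the member that passed lower in MEIS2-KO. It was 134 to 152 CPM in ctrl-KO (median 146) and 120 to 139 CPM in MEIS2-KO (median 124), overlapping groups with a log2 fold change of -0.20 (SE 0.06, adjusted p = 0.0324 from edgeR). The call of PPP1R15A was lost without replicate 1, 2, 4 or 5 (adjusted p up to 0.0546), that of SLC3A2 also without replicate 6, and that of PHGDH without any one of replicates 1 to 5 (adjusted p up to 0.126). The next smallest p belonged to SLC7A5, and asparagine synthetase (ASNS) had -0.17 (adjusted p = 0.108).

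The factors and the chaperone most used as readouts of the pathway stayed close to their controls in the knockouts. ATF4 was 366 to 406 CPM in ctrl-KO, 378 to 429 CPM in MEIS1-KO and 379 to 433 CPM in MEIS2-KO, with a log2 fold change of 0.05 in each (95% intervals from -0.04 to 0.14 and from -0.03 to 0.14). DDIT3 had log2 fold changes of -0.03 (95% interval from -0.25 to 0.19) and 0.15 (from -0.06 to 0.36) in MEIS1-KO and MEIS2-KO. XBP1 had 0.11 and 0.04, and HSPA5 had 0.11 and 0.03, none of which passed. For 37 of 40 members in MEIS1-KO and 35 in MEIS2-KO, the whole 95% interval lay between -0.58 and 0.58.

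ATF3 and SESN2 are also known targets of p53. CDKN1A and MDM2, the classical p53 targets, were looked up after the values of ATF3 and SESN2 had been seen. CDKN1A was 349 CPM on average in ctrl-KO, 456 CPM in MEIS1-KO (log2 fold change 0.39, adjusted p = 0.00218 from edgeR) and 500 CPM in MEIS2-KO (0.52, adjusted p = 1.29e-05). MDM2 had log2 fold changes of 0.24 (adjusted p = 0.0717) and 0.32 (adjusted p = 0.0017). The summed level of the 8 neural stem cell markers was 4330 to 4850 CPM in ctrl-KO, 4660 to 5950 CPM in MEIS1-KO and 4890 to 5980 CPM in MEIS2-KO, so it was higher in every MEIS2-KO library. The part of p53 activity or of marker levels in the rise of ATF3 and SESN2 was not tested. The guides of the knockouts cut DNA and those of ctrl-KO have no intended site, so that the cut and the loss of the gene cannot be told apart here.

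**Figure D1:**
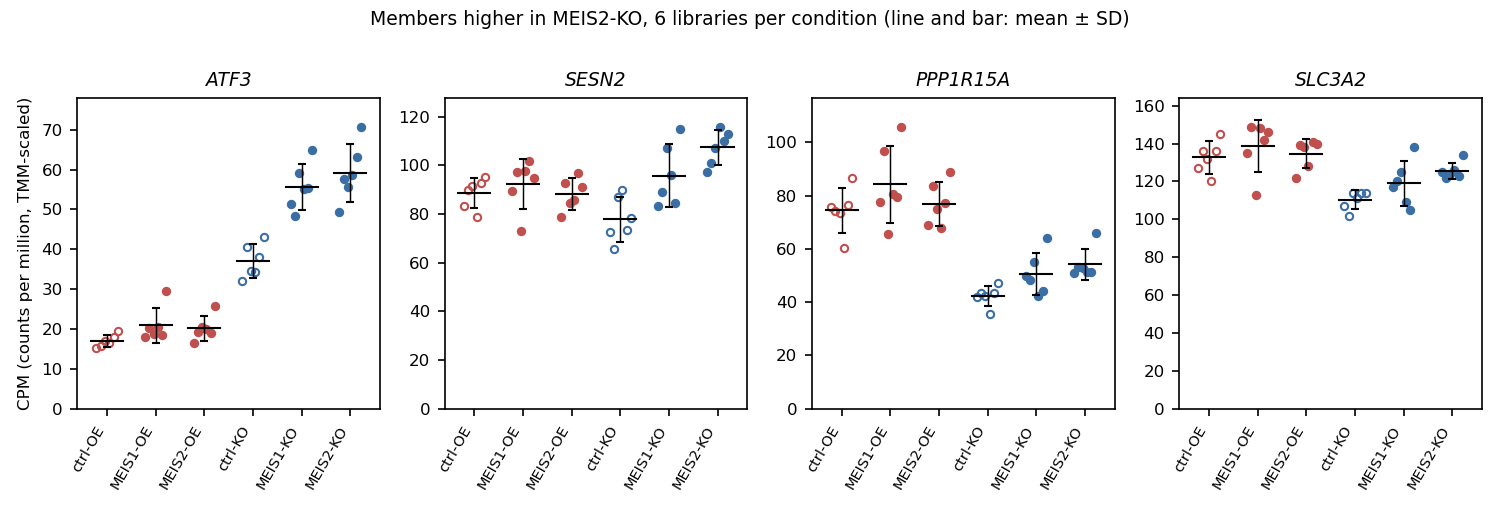
CPM (y axis, from 0) of ATF3, SESN2, PPP1R15A and SLC3A2 in each of the 6 libraries of the 6 conditions (x axis), with open points for controls, red for the activation arm, blue for the knockout arm, and line and bar for mean ± SD. ATF3 in both knockouts lay above all ctrl-KO libraries, the highest of which was at 43.1 CPM, and in MEIS2-KO the other 3 genes did so too.

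With MEIS1 activated, DDIT3 and HERPUD1 were higher and ATF6 was lower in MEIS1-OE than in ctrl-OE. Of 40 members, 2 passed higher (5%) and 1 lower (2.5%), shares close to the 5.52% and 3.58% of all tested genes. The median log2 fold change of the members was 0.02. The 3 genes belong to different branches, and no gene of amino acid metabolism, no chaperone and no disulfide isomerase passed.

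HERPUD1, an ER membrane protein that helps assemble the degradation machinery (chromosome 16 of GRCh37 from 56966054 to 56978776), had the smallest p. It was 27.0 to 32.8 CPM in ctrl-OE, with a median of 29.4, and 33.6 to 40.2 CPM in MEIS1-OE, with a median of 35.2. No MEIS1-OE library was as low as any control. The log2 fold change was 0.28 (SE 0.06, adjusted p = 0.00159 from edgeR), and it passed under every alternative. In MEIS2-OE, HERPUD1 was 30.8 to 38.2 CPM and overlapped ctrl-OE, with a log2 fold change of 0.18 (adjusted p = 0.255).

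DDIT3 (chromosome 12 from 57910371 to 57915520) was 8.72 to 11.4 CPM in ctrl-OE, with a median of 10.0, and 11.0 to 16.3 CPM in MEIS1-OE, with a median of 12.6. The groups overlapped slightly, since the lowest MEIS1-OE library was below the highest control. The log2 fold change was 0.35 (SE 0.09, adjusted p = 0.00946 from edgeR). It did not pass without replicate 4, without replicate 6 or with only the groups compared, and adjusted p ranged from 0.00496 to 0.0936 over the alternatives. The exons of DDIT3 overlap those of MARS1 and MBD6 on the opposite strand and of another annotated coding gene on the same strand. The strand setting of the counting is not given in the sources used here.

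ATF6 (chromosome 1 from 161736088 to 161947364), the sensor that becomes a transcription factor, was 96.4 to 109 CPM in ctrl-OE (median 102) and 84.7 to 99.6 CPM in MEIS1-OE (median 91.4). The ranges overlapped, and the log2 fold change was -0.15 (SE 0.04, adjusted p = 0.0192 from edgeR). This call was lost without replicate 1, 2, 4 or 5 and with only the groups compared (adjusted p from 0.00361 to 0.0945 over the alternatives). The next members by p were ATF4 with a log2 fold change of 0.12 (SE 0.04, adjusted p = 0.0653), ATF3 with 0.30 (SE 0.11, adjusted p = 0.0736) and PHGDH with 0.16 (SE 0.06, adjusted p = 0.122). ATF3 was 15.2 to 19.4 CPM in ctrl-OE and 17.9 to 29.5 CPM in MEIS1-OE, where 1 library, replicate 6, held the highest value and the others reached 20.4 CPM. XBP1 had a log2 fold change of 0.08 and HSPA5 of -0.01 (95% interval from -0.10 to 0.08), and 38 of 40 intervals lay between -0.58 and 0.58.

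With MEIS2 activated, no member was past the threshold (0 of 40 by edgeR, 5 at an unadjusted p under 0.05, and 0 by DESeq2), where 1.07% of tested genes passed higher and 0.279% lower. The smallest p was that of XBP1, the factor made by IRE1 splicing. XBP1 was 58.6 to 71.8 CPM in ctrl-OE (median 69.5) and 72.5 to 87.1 CPM in MEIS2-OE (median 76.9), so the groups did not overlap, with a log2 fold change of 0.20 (SE 0.06, adjusted p = 0.0823). HERPUD1 and MTHFD2, a mitochondrial one-carbon enzyme, followed with 0.18 (adjusted p = 0.255) and 0.12 (adjusted p = 0.408). ATF4, DDIT3 and HSPA5 had log2 fold changes of 0.06, 0.05 and 0.06. SLC7A11 did not overlap between the groups either (13.9 to 15.4 CPM in ctrl-OE and 15.5 to 17.0 CPM in MEIS2-OE), and it did not pass. Here and elsewhere, groups without overlap were not counted over all tested genes. For 39 of 40 members the whole interval lay between -0.58 and 0.58.

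**Figure D2:**
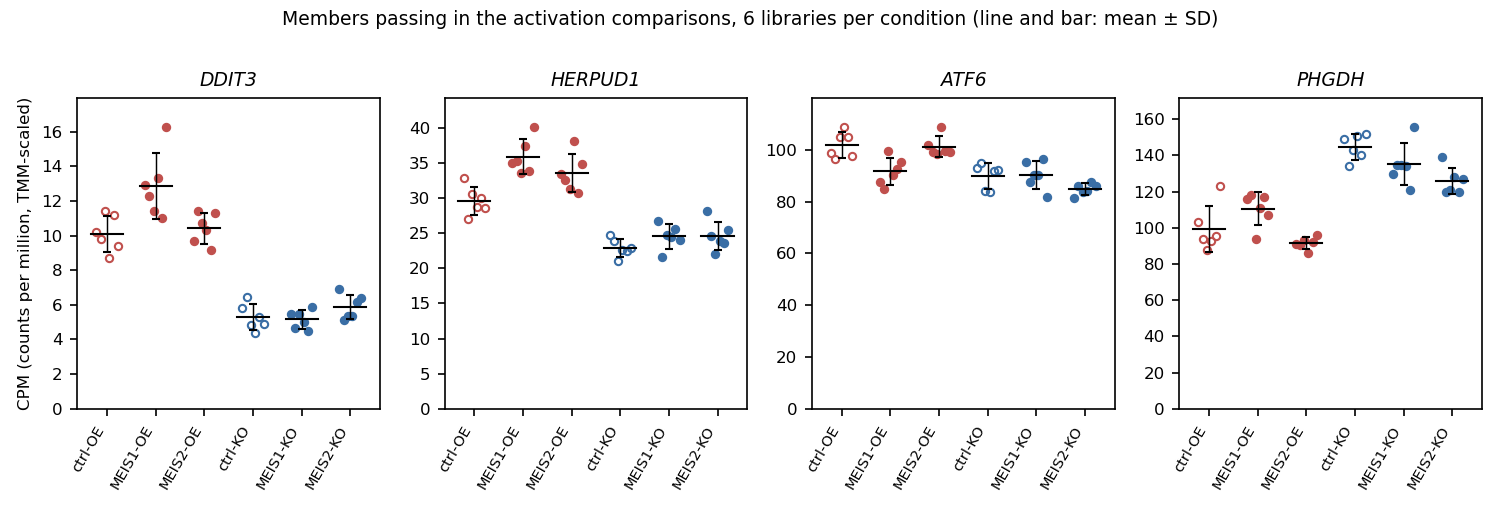
CPM (y axis, from 0) of DDIT3, HERPUD1, ATF6 and PHGDH in each of the 6 libraries of the 6 conditions (x axis), with open points for controls, red for the activation arm, blue for the knockout arm, and line and bar for mean ± SD. The 6 HERPUD1 libraries of MEIS1-OE sit between 33.6 and 40.2 CPM, above all 6 of ctrl-OE, while DDIT3 and ATF6 overlap their control.

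The activation conditions were also set against each other, a comparison in which the control plays no part. DDIT3 and PHGDH were higher in MEIS1-OE than in MEIS2-OE, and ATF6 and the mannosidase-like EDEM1, which marks misfolded glycoproteins for degradation, were lower. This made 2 of 40 members higher (5%) and 2 lower (5%), where 4.93% and 2.82% of tested genes passed. PHGDH was 94 to 118 CPM in MEIS1-OE (median 113) and 86.0 to 96.2 CPM in MEIS2-OE (median 91.6), with 1 MEIS1-OE library inside the MEIS2-OE range. Its log2 difference was 0.27 (SE 0.06, adjusted p = 0.00293 from edgeR) and held under every alternative. DDIT3 differed by 0.30 (SE 0.09, adjusted p = 0.0323), ATF6 by -0.15 (SE 0.04, adjusted p = 0.0322) and EDEM1 by -0.16 (SE 0.05, adjusted p = 0.0439). The call of DDIT3 was lost with only the groups compared and without replicate 1, 4, 5 or 6 (adjusted p up to 0.141). That of ATF6 was lost with only the groups compared and without replicate 1, 2, 4 or 5 (up to 0.167), and that of EDEM1 with no filter and without the same replicates as ATF6 (up to 0.174).

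The study's design also subtracts the knockout effect from the activation effect, so that a gene that follows the amount of MEIS1 or MEIS2 adds up and a gene that moves the same way in both cancels. In this MEIS1 contrast no member passed (0 of 40 by edgeR, 6 at an unadjusted p under 0.05, and 0 by DESeq2), where 2.35% of tested genes passed higher and 1.14% lower. Stanniocalcin 2 (STC2), a secreted stress glycoprotein, had the smallest p, with -0.61 (SE 0.19, adjusted p = 0.0718), and the next by p were PHGDH with 0.26 (adjusted p = 0.115) and DDIT3 with 0.38 (adjusted p = 0.169). In the MEIS2 contrast SESN2 passed lower with -0.47 (SE 0.11, adjusted p = 0.0118), 1 of 40 members (2.5%) and 0 higher, where 1.18% of tested genes passed lower and 1.39% higher. The call of SESN2 was lost without replicate 2 or 5 (adjusted p from 0.00161 to 0.0603 over the alternatives). SESN2 averaged 88.7 CPM in ctrl-OE and 88.3 CPM in MEIS2-OE, so the contrast mainly restates its rise in MEIS2-KO. ATF3 had -0.43 (adjusted p = 0.116) and CANX 0.17 (adjusted p = 0.111). In both contrasts ATF4 (0.07 and 0.01), XBP1 (-0.03 and 0.16) and HSPA5 (-0.12 and 0.04) did not pass, nor did DDIT3 in the MEIS2 contrast (-0.11).

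**Figure D3:**
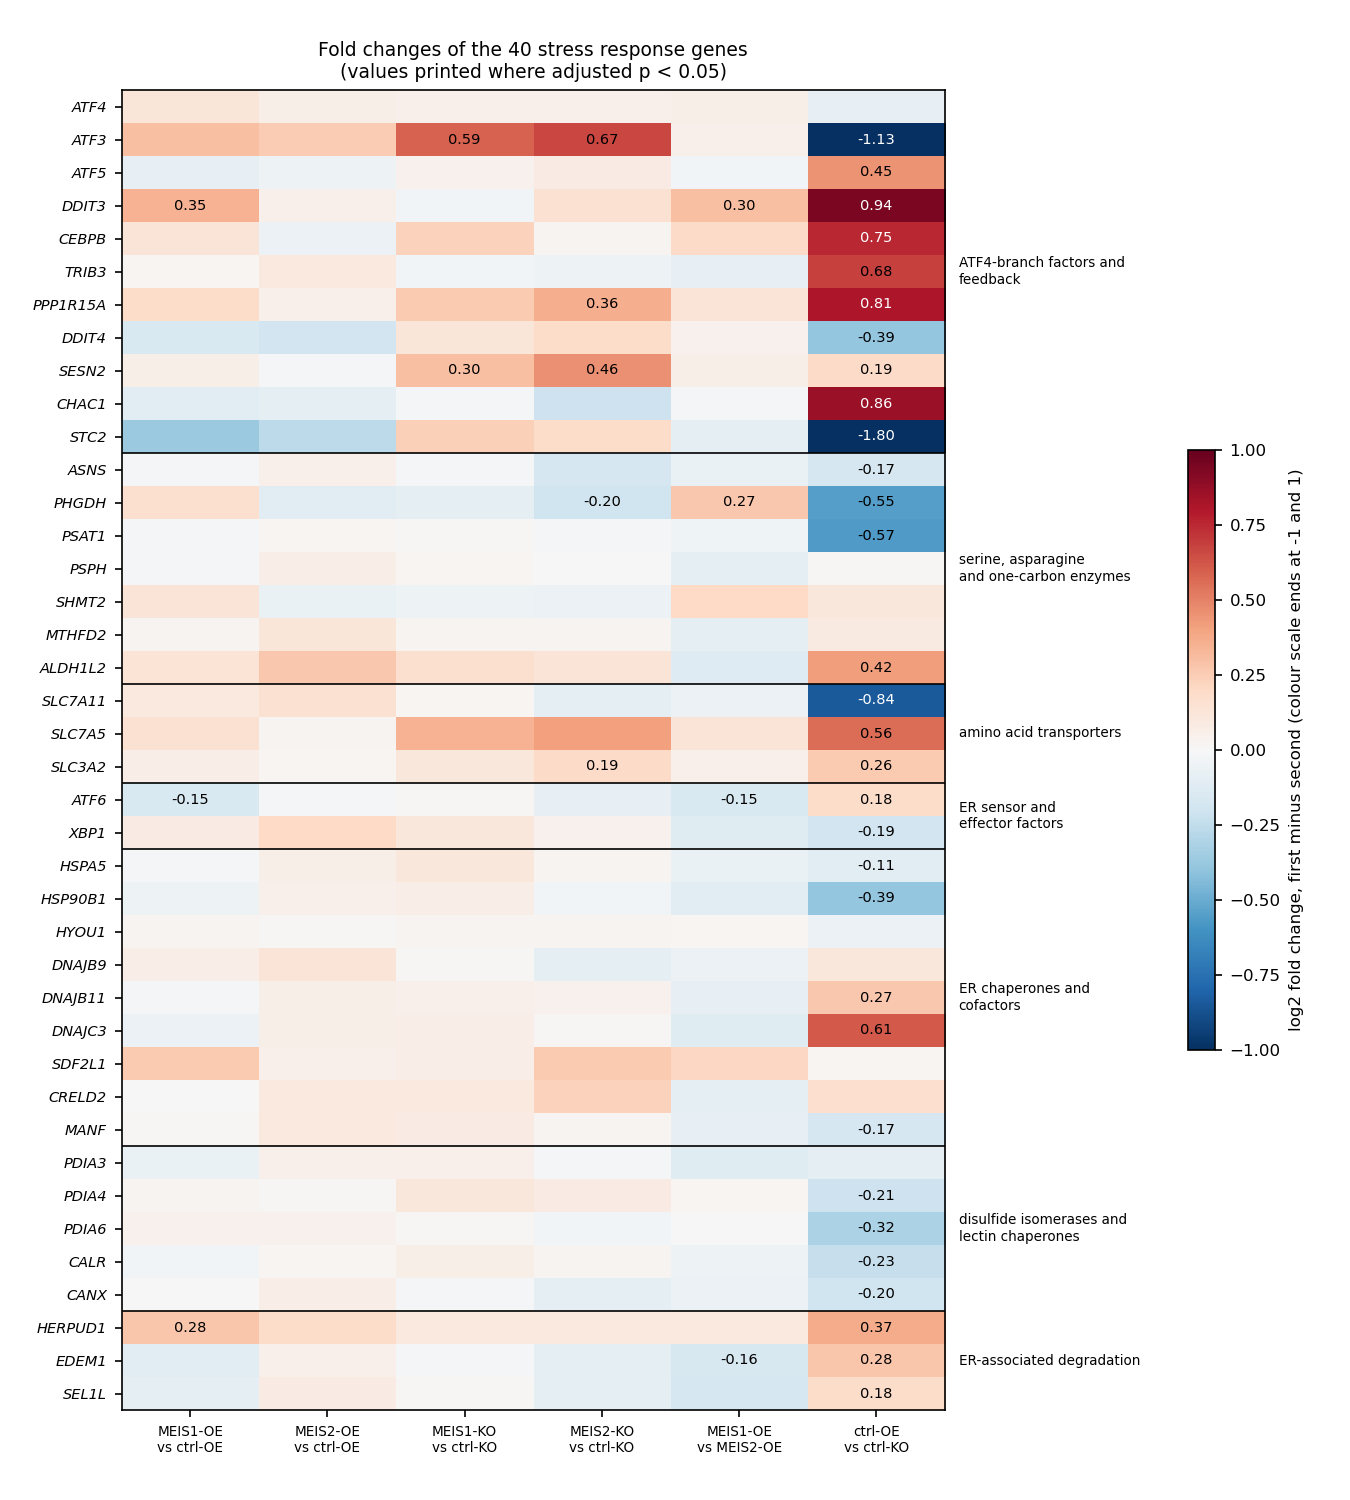
Log2 fold change (colour, red for higher in the condition named first, with the scale ending at -1 and 1) of the 40 genes (rows, grouped by branch) in 6 comparisons (columns), with the value printed where the gene passed at an adjusted p under 0.05. Between 0 and 5 of the 40 genes passed in each comparison with MEIS activation or knockout, and 31 between the controls. Over all tested genes, 27.5% passed higher and 23.9% lower between the controls. These shares were 4.04% and 5.98% in MEIS2-KO, where 5 of the 40 passed, and 1.07% and 0.279% in MEIS2-OE, where 0 did. The rise in passing genes between the controls was thus not limited to the 40.

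The largest differences in these genes lay between the control conditions, ctrl-OE and ctrl-KO. Of the 40 members, 16 were higher (40%) and 15 lower (37.5%) in ctrl-OE. Over all tested genes, 27.5% passed higher and 23.9% lower, and among the 12700 genes at or above the mean level of CHAC1, the lowest of the members, 31.0% and 32.1% did. A log2 fold change beyond 0.58 was added by 6 members higher and 3 lower, against 13.0% and 9.15% of tested genes. The median log2 fold change was 0.05 for the members and 0.05 for all tested genes. Genes of the same branch moved in opposite directions in 5 of the 7 branches, and in the same direction among the disulfide isomerases with the lectin chaperones and among the degradation genes.

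Among the ATF4-branch factors and their feedback genes, 7 of 11 were higher and 3 lower in ctrl-OE. DDIT3 was 4.40 to 6.47 CPM in ctrl-KO against 8.72 to 11.4 CPM in ctrl-OE, a log2 fold change of 0.94 (SE 0.10, adjusted p = 2.33e-10 from edgeR). PPP1R15A was 35.4 to 47.3 CPM against 60.2 to 86.5 CPM, a log2 fold change of 0.81 (SE 0.10). Neither gene overlapped between the controls. CHAC1 (0.86), the C/EBP factor CEBPB (0.75), the pseudokinase TRIB3 (0.68), ATF5 (0.45) and SESN2 (0.19) were higher as well, the first 2 of them from low levels of 0.619 to 1.77 and 1.1 to 1.88 CPM in ctrl-KO. ATF3 went the other way, from 32.0 to 43.1 CPM in ctrl-KO down to 15.2 to 19.4 CPM in ctrl-OE, with a log2 fold change of -1.13 (SE 0.11, adjusted p = 9.72e-12). STC2 was 3.70 to 4.17 CPM in ctrl-KO and 0.767 to 1.54 CPM in ctrl-OE, with -1.80 (SE 0.13, adjusted p = 5.74e-15), the largest of the 40. DDIT4, an inhibitor of mTORC1, had -0.39, and ATF4 itself was 366 to 406 and 348 to 386 CPM, with -0.08 (95% interval from -0.17 to 0.00, adjusted p = 0.0972).

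The enzymes of serine, asparagine and one-carbon metabolism split too. PSAT1, the second enzyme of serine synthesis, had the smallest p of all members. It was 189 to 209 CPM in ctrl-KO and 126 to 139 CPM in ctrl-OE, ranges far apart for their narrow spread, with a log2 fold change of -0.57 (SE 0.04, adjusted p = 2.51e-15 from edgeR). PHGDH had -0.55 (SE 0.06) and ASNS -0.17, whereas ALDH1L2, a mitochondrial folate enzyme, had 0.42. PSPH, the third enzyme of serine synthesis, was 38.2 to 41.5 CPM in ctrl-KO and 39.3 to 42.0 CPM in ctrl-OE (0.01, 95% interval from -0.06 to 0.09), and SHMT2 and MTHFD2 did not pass (0.11 and 0.09). Of the transporters, the cystine importer SLC7A11 was 23.9 to 27.8 CPM in ctrl-KO and 13.9 to 15.4 CPM in ctrl-OE, with -0.84 (SE 0.08, adjusted p = 1.54e-11), while SLC7A5 (0.56) and SLC3A2 (0.26) were higher in ctrl-OE.

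Among the ER chaperones and cofactors, HSP90B1 was 1410 to 1600 CPM in ctrl-KO and 1030 to 1210 CPM in ctrl-OE, with a log2 fold change of -0.39 (SE 0.05, adjusted p = 1.64e-08 from edgeR). Its partner HSPA5 differed little, with 674 to 749 against 610 to 697 CPM and -0.11 (SE 0.05, adjusted p = 0.0499), a call lost in 8 of the 13 alternatives (adjusted p from 0.0209 to 0.234), among them the fits without replicate 1, 2, 4, 5 or 6. MANF, a secreted ER protein, had -0.17. The co-chaperones DNAJC3 (P58IPK, an inhibitor of PERK) and DNAJB11 were higher. DNAJC3 was 43.3 to 51.0 CPM in ctrl-KO and 67.5 to 74.7 CPM in ctrl-OE, with 0.61 (SE 0.05, adjusted p = 2.56e-14), and DNAJB11 had 0.27. HYOU1, DNAJB9, SDF2L1 and CRELD2 did not pass, with values from -0.06 to 0.17.

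PDIA6, an isomerase that reduces and forms disulfide bonds, was 582 to 623 CPM in ctrl-KO and 454 to 505 CPM in ctrl-OE, with a log2 fold change of -0.32 (SE 0.03, adjusted p = 1.79e-11 from edgeR). CALR (-0.23), PDIA4 (-0.21) and CANX (-0.20) were lower as well, and PDIA3 had -0.09 (adjusted p = 0.106). In annotation, 25.2% of the exon length of PDIA6 lies under exons of ATP6V1C2 on the opposite strand. The degradation genes HERPUD1 (0.37), EDEM1 (0.28) and SEL1L (0.18, an adaptor of the ubiquitin ligase) were all higher. Of the factors, ATF6 had 0.18 and XBP1 -0.19. Among all members that passed between the controls, besides HSPA5, the calls lost without 1 replicate number were those of DDIT4, ALDH1L2 and SEL1L (without replicate 4), ASNS and MANF (without replicate 2, 5 or 6) and SESN2 (without replicate 1, 2, 5 or 6). The 7 genes with ERSE in their window, grouped after these values had been seen, comprised 6 that passed lower in ctrl-OE (HSPA5, HSP90B1, PDIA6, CALR, CANX and XBP1) and CRELD2 with 0.17 (adjusted p = 0.183), a median of -0.20. Of all tested genes 23.9% passed lower, and 32.1% of those at or above the lowest member level, and the call of HSPA5 is the one lost in 8 of 13 alternatives. The 3 genes with ERSE-II had 1 higher (HERPUD1) and 0 lower, with a median of 0.02. The 5 genes with CARE had 3 higher (CHAC1, HERPUD1 and SLC3A2) and 2 lower (ATF3 and ASNS).

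Marker lists of other cell types differed between the controls too. The summed level was 969 to 1010 CPM in ctrl-KO and 405 to 587 CPM in ctrl-OE for 7 neuronal genes (4 at or above 1 CPM, STMN2 and RBFOX3 below 0.1), and 246 to 270 against 105 to 126 CPM for 6 astrocyte genes (ALDH1L1 below 0.1 in both). For 6 mesenchymal genes it was 702 to 914 against 337 to 533 CPM. For the 8 neural stem cell genes it was 4330 to 4850 against 2930 to 3800 CPM. The 3 pluripotency genes summed to 441 to 535 against 284 to 321 CPM. Only 1 of these 3 was at or above 1 CPM in each control, with NANOG below 0.1 in both and POU5F1 below 0.1 in ctrl-KO. The 6 oligodendrocyte lineage genes summed to 32.8 to 39.4 against 27.8 to 30.2 CPM, with 2 at or above 1 CPM in ctrl-KO and 1 in ctrl-OE. The part of these marker lists in the difference of the stress genes was not tested.

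**Figure D4:**
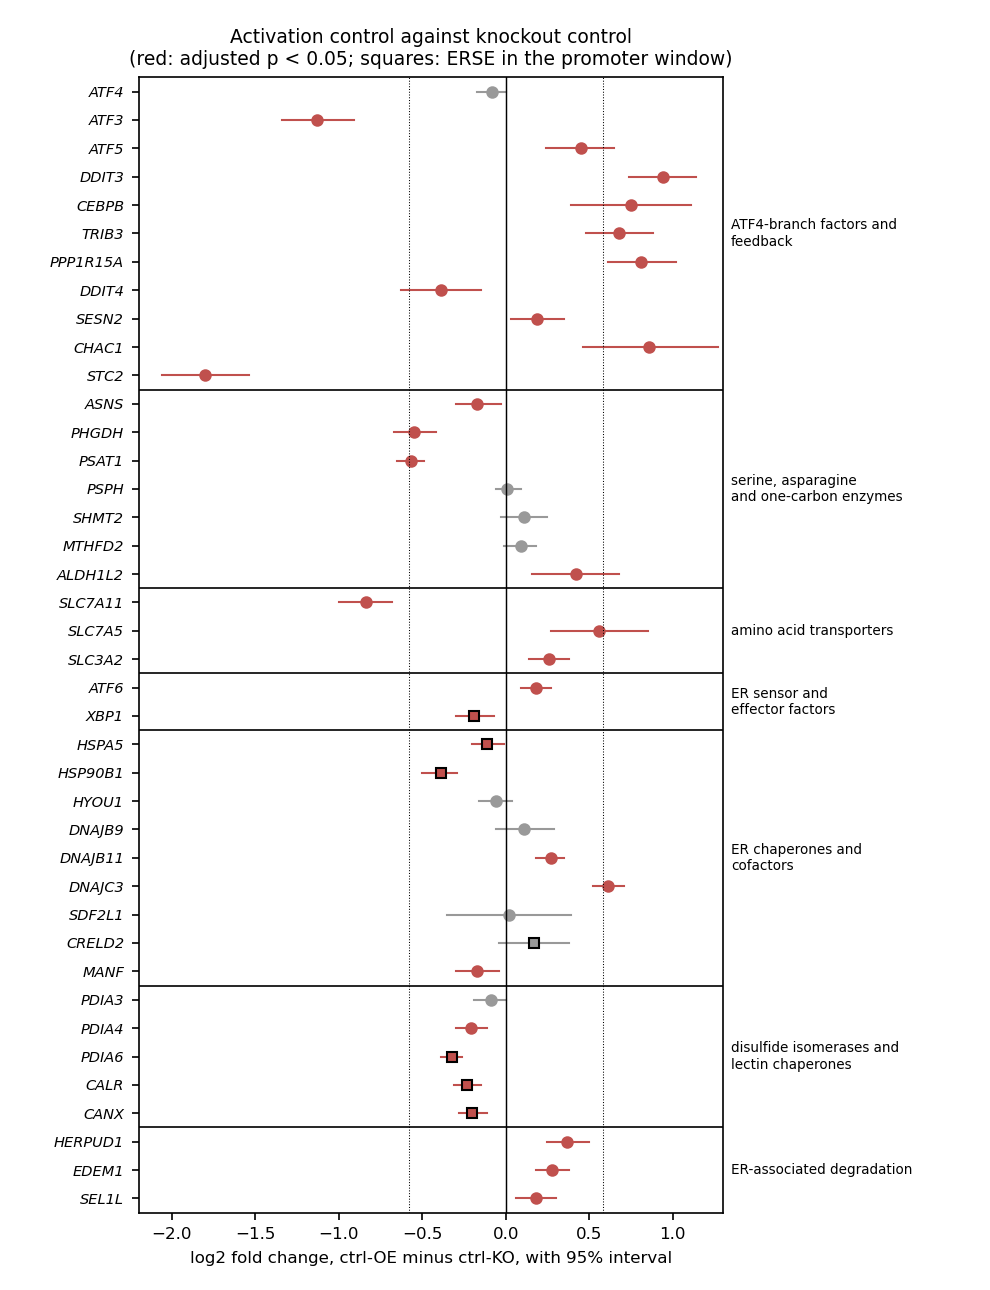
Log2 fold change with 95% interval (x axis, ctrl-OE minus ctrl-KO, dotted lines at -0.58 and 0.58) of the 40 genes (rows, grouped by branch), red where the adjusted p was under 0.05, with squares for the 7 genes with ERSE in a promoter window. STC2 at -1.80 and DDIT3 at 0.94 are the ends of the range, and 6 of the 7 squares are red and left of 0.

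Genes of the same pathways outside the 40 were followed in 6 lists that hold 123 genes in all (122 tested). In MEIS1-OE, 8 passed higher (6.56%) and 4 lower (3.28%), close to the 5.52% and 3.58% of all tested genes. The higher ones with the smallest p were the lipoprotein receptor VLDLR (log2 fold change 0.50, adjusted p = 9.02e-07 from edgeR), the ubiquitin ligase SYVN1 (0.48, adjusted p = 9.81e-07) and the ER oxidase ERO1L (0.32), and the lower ones were CTH (-0.37), the chaperone CLGN (-0.29) and the folding sensor UGGT1 (-0.19). In MEIS2-OE none of the 122 passed (0 by edgeR, 8 at an unadjusted p under 0.05, and 0 by DESeq2). In MEIS1-KO, CLGN (-0.33) and the transporter SLC1A4 (-0.22) were lower (1.64%, against 0.432% of all tested genes) and none was higher. In MEIS2-KO, 4 were higher (3.28%) and 10 lower (8.20%), where 4.04% and 5.98% of all tested genes passed. Most of these calls were in 1 list, the 22 tested ATF4-responsive genes, with 3 higher and 6 lower (median log2 fold change -0.05). The ER folding genes and the cytosolic tRNA synthetases had 2 lower each, and the genes of degradation and translocation had 1 higher. SEC61A1 of the translocon (0.21), the stress cytokine GDF15 (0.84, adjusted p = 0.00136) and NUPR1 (0.69) led upwards, and CLGN (-0.44), VLDLR (-0.31) and the ATF4 partner CEBPG (-0.18) downwards.

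Between the controls, 39 of the 122 were higher (32.0%) and 33 lower (27.0%) in ctrl-OE, near the 27.5% and 23.9% of all tested genes. The ER-phagy receptor CCPG1 (1.24) and TMEM66 (0.43) were among the higher ones, and VLDLR (-0.83), MTHFD1L (-0.60) and the tRNA synthetase subunit FARSB (-0.50) led downwards. Of 22 tested ATF4-responsive genes, 4 were higher and 11 lower, with a median log2 fold change of -0.26. Of 30 genes of degradation and translocation, 12 were higher and 2 lower, with a median of 0.08. The remaining lists were mixed. They had 7 higher and 5 lower of 17 sensor and eIF2 genes, and 3 and 5 of 20 cytosolic tRNA synthetases. ER folding genes had 9 and 7 of 23, and mitochondrial stress genes 4 and 3 of 10. In the MEIS1 contrast 4 of the 122 passed higher (3.28%, against 2.35% of all tested genes, with VLDLR 0.57, SLC1A4 0.40 and ERO1L 0.39 with the smallest p) and CTH lower (-0.49, with 1.14% of all tested genes lower). In the MEIS2 contrast VLDLR (0.36) and UBE2J1 (0.25) were higher (1.64%, against 1.39%) and GDF15 lower (-0.96, with 1.18% of all tested genes lower). MEIS1-OE against MEIS2-OE gave 8 higher and 4 lower (6.56% and 3.28%, against 4.93% and 2.82%). The higher ones were led by SYVN1 (0.51), VLDLR (0.45) and SLC1A4 (0.25), and the lower ones by CTH (-0.31), SLC7A1 (-0.22) and TMEM66 (-0.14).

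Within a condition the 40 genes differed widely in how steady they were. The SD of log2(CPM + 0.5) between libraries of a condition was 0.0430 for PDIA6, 0.0466 for PSPH and 0.0612 for PSAT1, but 0.274 for SLC7A5, 0.290 for CHAC1 and 0.324 for SDF2L1, a cofactor of BiP. Of the tested genes with a mean level within 1.5-fold of it, 97.5% had a smaller SD than SLC7A5, 94.5% a smaller one than SDF2L1, 88.5% a smaller one than PPP1R15A and 84.6% a smaller one than ATF3. For PSPH the share was 0.0329% and for PDIA6 2.31%. ATF4 itself, with an SD of 0.0713, was steadier than ATF3, with 0.185.

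Some libraries were the highest or the lowest of their condition for many of these genes. MEIS1-OE replicate 3 was the lowest of its 6 libraries for 18 of the 40 genes, among them SLC7A5 with 60.4 CPM, SDF2L1 with 4.33 CPM and PPP1R15A with 65.6 CPM, and the highest for 10 others, such as DNAJB9. MEIS1-KO replicate 6 was the highest for 19 genes and the lowest for 10, and ctrl-OE replicate 6 the highest for 19 and the lowest for 5. Such ranks were not counted over all tested genes, so they may belong to the libraries and not to these genes in particular. The libraries numbered 6 held the highest ATF3 and PPP1R15A of every condition, from 19.4 CPM in ctrl-OE to 70.8 CPM in MEIS2-KO for ATF3 and from 47.3 CPM in ctrl-KO to 106 CPM in MEIS1-OE for PPP1R15A. Without these libraries, ATF3 and SESN2 still passed in MEIS2-KO and ATF3 in MEIS1-KO, while DDIT3 no longer passed in MEIS1-OE.

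**Figure D5:**
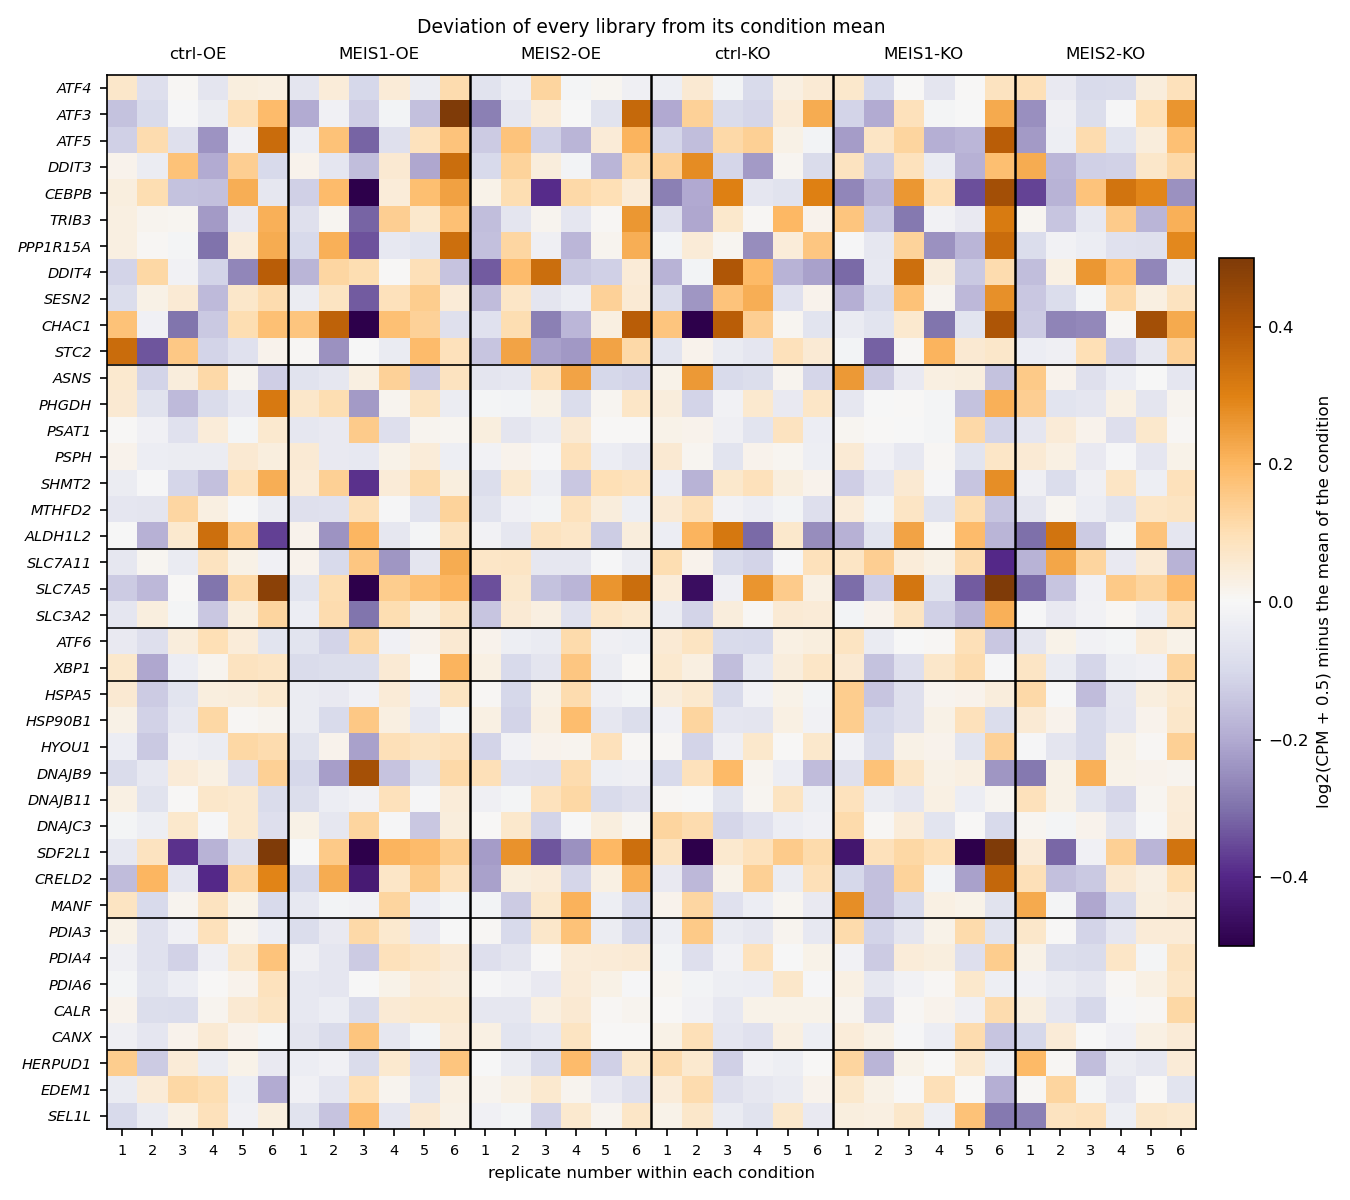
Deviation of log2(CPM + 0.5) from the mean of its condition (colour, orange for higher, with the scale ending at -0.5 and 0.5) for the 40 genes (rows, grouped by branch) in the 36 libraries (columns, by condition and replicate number). Replicate 3 of MEIS1-OE is low and replicate 6 of MEIS1-KO high for many of the upper rows, while PSPH and PDIA6 are almost without colour.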

How the data were processed

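The 40 members and all gene lists were chosen with earlier results of these data known. The authors sequenced poly-A RNA as stranded paired reads. Their methods give STAR 2.4.2a and HTSeq 0.6.0 on hg19, while the submitters' processing notes give Trimmomatic 0.39 and STAR 2.7.0a. The annotation and strand setting are not given in the sources used here. The deposited values are raw counts per gene symbol, without normalization.

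From these counts, genes with at least 10 counts summed over 36 libraries were tested with edgeR 4.0.16 (limma 3.58.1, R 4.3.3), with TMM scaling, a prior count of 0.125, two-sided quasi-likelihood F tests and Benjamini-Hochberg adjustment over 19689 genes. Each SE was obtained as the size of the fold change (log2) over the root of F. The script was tested on simulated data. Named genes were all passing members, those with the smallest p in each comparison, ATF4, DDIT3, XBP1 and HSPA5, and up to 3 other pathway genes per direction, of which 1 result is not reported here. Gene positions and exon lengths came from GENCODE v44lift37 (GRCh37). Alternatives were RLE size factors, filterByExpr, no filter, a prior count of 2, replicate blocks, only the groups compared, DESeq2 1.42.0 and each replicate number left out.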

Additional observations from a re-analysis of the deposited data

Results flagged for a closer look

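Of 240 groups of 6 libraries (40 genes in 6 conditions), 15 held a library that lay far from the other 5 by Dixon's criterion, whereas chance gives about 1 in 20, or 12.0 of 240. In MEIS1-OE, replicate 6 was high for ATF3 (29.5 CPM, the others 17.9 to 20.4), replicate 4 was high for MANF (97 CPM, the others 85.9 to 88), and replicate 3 was low for SHMT2 (139 CPM, the others 187 to 200) and SDF2L1 (4.33 CPM, the others 7.31 to 8.49). In MEIS2-OE, replicate 3 was low for CEBPB (1.67 CPM, the others 2.39 to 2.58) and replicate 4 high for ATF6 (109 CPM, the others 98.4 to 102). In ctrl-KO, replicate 2 was high for ASNS (90.8 CPM, the others 70.7 to 77.3) and PDIA3 (751 CPM, the others 651 to 682) and low for SDF2L1 (4.16 CPM, the others 6.36 to 6.81). In MEIS1-KO, replicate 6 was low for SLC7A11 (19.7 CPM, the others 26.6 to 28.8) and EDEM1 (41.4 CPM, the others 47.4 to 50.6). In MEIS2-KO, replicate 6 was high for PPP1R15A (66.0 CPM, the others 50.8 to 53.3) and SLC3A2 (134 CPM, the others 122 to 126), replicate 2 high for EDEM1 (49.5 CPM, the others 43.4 to 45.5) and replicate 1 low for SEL1L (87.1 CPM, the others 103 to 113).

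The effect of activating MEIS1 differed from that of activating MEIS2, in a test of the difference itself, for DDIT3 (0.30), PHGDH (0.27), ATF6 (-0.15) and EDEM1 (-0.16) on the log2 scale. These were 4 of 40 members (10%), against 7.75% of all tested genes. The calls of DDIT3, ATF6 and EDEM1 were each lost in 5 of 13 alternatives, and that of PHGDH in none. The effects of activating and of deleting MEIS2 differed for SESN2 by -0.47 (adjusted p = 0.0118 from edgeR). This lay on the knockout side, since SESN2 averaged 88.7 CPM in ctrl-OE and 88.3 CPM in MEIS2-OE.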

How the results depend on the processing

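The number of members that passed moved by over 1.5 times under some alternatives, and the cause was not tested. With a replicate block it was 5 in MEIS1-OE (ATF3 and ATF4 added), 2 in MEIS2-OE (ATF3 and XBP1), 2 in the MEIS1 contrast (ATF3 and PHGDH) and 3 in the MEIS2 contrast (ATF3 and PPP1R15A added). Over all genes, libraries with the same number deviated together only weakly (mean r 0.0361 over 90 pairs, 16 of them above 0.1). The 450 other pairs had a mean r of -0.00732, with 51 of them above 0.1. The main test did not take the replicate number as a pairing. With the block, however, more of all tested genes passed in both directions in every comparison. In MEIS1-KO these were 324 higher and 134 lower, against 202 and 85 without it. In the MEIS2 contrast they were 373 and 346, against 274 and 232. Libraries numbered 6 also held the highest ATF3 and PPP1R15A in 6 conditions, and the highest TRIB3 and SLC7A5 in 5. Any shared effect of the replicate number stays in the spread that the main test uses. With only the groups compared, 1 member passed in MEIS1-OE and 1 in MEIS1-KO. The MEIS2 contrast and MEIS1-OE against MEIS2-OE each held 2. Leaving out 1 replicate number gave between 1 (without replicate 4) and 4 in MEIS1-OE, gave 1 in MEIS1-KO whichever number was left out, and ranged from 2 (without replicate 1, 2, 4 or 5) to 4 in MEIS2-KO, from 0 to 2 (without replicate 6) in the MEIS1 contrast, from 0 (without replicate 2 or 5) to 2 (without replicate 6) in the MEIS2 contrast and from 1 (without replicate 1, 4 or 5) to 7 (without replicate 3) in MEIS1-OE against MEIS2-OE. In the MEIS1 contrast 1 member (STC2) passed without replicate 2. With 1 replicate number left out the count stayed at 0 in MEIS2-OE and between 27 and 31 for ctrl-OE against ctrl-KO. Values near 0 changed sign: HSPA5 in MEIS1-OE (0.01 and 0.00), DDIT3 in MEIS1-KO (between -0.09 and 0.06, with 0.01 without replicate 5) and XBP1 in the MEIS1 contrast (between -0.09 and 0.00) with 1 replicate left out, and ATF4 in the MEIS2 contrast with RLE factors and DESeq2 (-0.00) and with 1 replicate left out (-0.02, -0.03 and -0.00). Of 949 values of single genes under alternatives, 867 kept direction and side of the threshold. The lowest counts of a member in a library were 11 for CHAC1, 13 for STC2 and 15 for CEBPB.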
